A study of Mus musculus with 12 samples.

Results

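Collagens and laminins were examined in the polyribosome-bound RNA of rods and in the RNA of the whole retina. The members are the 55 genes whose symbol has the form of a collagen chain (Col, a number, a, a number) or a laminin chain (Lama, Lamb or Lamc and a number), out of 56748 genes in the deposited table. There are 44 collagen and 11 laminin genes. The mice carried 2 RiboTag alleles and a rod-specific Cre (i75), which puts an HA tag on ribosomes of rods, so that immunoprecipitation with an HA antibody (Rod-TRAP) enriches the transcripts that rods translate. Control mice (Pkm2_Rodhet in the labels, wt in the titles) had 1 floxed Pkm2 allele, and Pkm2_Rodko mice had both. Cre and the tag were thus present in all 4 groups, and the control rods had 1 recombined Pkm2 allele. Rods (the HA fraction) and retina (the input) gave 3 libraries each per genotype, 12 in all, from mice that the methods describe as 2 months old and the series text as 2 weeks old. Recombination is limited to rods by the promoter of the Cre, so other retinal cells kept their Pkm2 alleles. The sources do not say how many retinas went into a library or whether animals were pooled, so p-values measure the spread between these libraries, which may be technical.

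Totals ran from 13458890 to 22790073 reads per library. All 8 rod markers (Gnat1, Nrl and others) were higher in control rods than in control retina, with a median log2 difference of 1.96. Total Pkm, the targeted gene, was 66617, 65101 and 70318 TMM-scaled reads in control rods and 30486, 28578 and 28253 in Pkm2_Rodko rods. In the genotype test on deposited values it fell by 1.20 on the log2 scale in rods (adjusted p = 5.4e-05, limma) and by 0.65 in retina (adjusted p = 0.022). Pkm1 and Pkm2 share this gene and could not be separated. Without any 1 of control retinas 1 and 3 and the 3 Pkm2_Rodko retinas, the retina difference of Pkm lay between -0.68 and -0.64 and its adjusted p between 0.063 and 0.95. The deposited values were scaled within each fraction and do not share a scale between rods and retina. A TMM-scaled read is a read after each of the 12 libraries was brought to 1 common depth of 18053700 effective reads, and all levels below are on this scale unless the deposited values are named. Control retina 2 and Pkm2_Rodko retina 3 stood apart in their pigment epithelium and melanocyte markers. The sum of 5 pigment epithelium markers was 1227 TMM-scaled reads in control retina 2 against 5270 and 5082 in the other control retinas, and 2719 in Pkm2_Rodko retina 3 against 4838 and 6833. The same library numbers were lowest in the rod libraries, at 256 of 256 to 1097 in control and 393 of 393 to 900 in Pkm2_Rodko.

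Collagens are trimers of chains that share a triple helix. They form fibrils (types I, II, III, V and XI), sheet-like networks (type IV in basement membranes, type VIII under endothelia), fibril-associated bridges (FACITs), beaded microfibrils, and proteins held in the cell membrane. Laminins join an alpha, a beta and a gamma chain and begin the assembly of basement membranes. The retina has such sheets at the vitreous face, around its vessels and under the pigment epithelium, and the glia, vascular cells and epithelium that border them are the usual makers, while rods touch the interphotoreceptor matrix and the matrix of their synapse.

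The type IV genes lie in pairs that start back to back. In RefSeq (GRCm38.p6) the records of Col4a4 and Col4a3 overlap by 114 bases at their 5′ ends and those of Col4a1 and Col4a2 by 85 bases, while 1274 bases separate Col4a6 from Col4a5. Windows of 300 bases, from 250 before to 50 after a start site, are shown for the gene of each overlapping pair that lies on the minus strand, because the members of these pairs differ in the comparison of rods with retina, and for Col5a3, which was also higher in control rods. They are written 5′ to 3′ on the strand of the named gene. Capitals mark the stretch that both records of the pair share, and in Col5a3 the letters TGCTGA.
Col4a4 (chr1:82586800-82587099, minus strand): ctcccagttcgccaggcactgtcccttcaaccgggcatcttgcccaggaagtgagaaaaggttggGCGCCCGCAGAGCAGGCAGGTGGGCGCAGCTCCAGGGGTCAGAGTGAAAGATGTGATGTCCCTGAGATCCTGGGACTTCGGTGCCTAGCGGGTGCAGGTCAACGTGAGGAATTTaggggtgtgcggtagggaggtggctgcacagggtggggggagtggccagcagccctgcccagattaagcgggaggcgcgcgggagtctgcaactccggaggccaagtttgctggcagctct
Col4a1 (chr8:11312777-11313076, minus strand): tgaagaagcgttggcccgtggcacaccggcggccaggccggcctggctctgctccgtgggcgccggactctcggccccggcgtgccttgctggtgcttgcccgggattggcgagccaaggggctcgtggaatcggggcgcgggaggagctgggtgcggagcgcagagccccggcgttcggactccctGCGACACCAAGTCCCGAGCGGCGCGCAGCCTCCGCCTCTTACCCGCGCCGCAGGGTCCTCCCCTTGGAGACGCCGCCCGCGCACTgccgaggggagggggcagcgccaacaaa
Col5a3 (chr9:20815018-20815317, minus strand): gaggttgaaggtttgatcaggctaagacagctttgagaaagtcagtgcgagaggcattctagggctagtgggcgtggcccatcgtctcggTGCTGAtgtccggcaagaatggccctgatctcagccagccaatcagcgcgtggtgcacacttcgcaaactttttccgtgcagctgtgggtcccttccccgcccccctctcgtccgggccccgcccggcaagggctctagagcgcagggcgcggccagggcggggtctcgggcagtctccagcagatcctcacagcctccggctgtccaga
The bases G and C made up 63.3% of the Col4a4 window, 74% of the Col4a1 window and 63.3% of the Col5a3 window, against a median of 52.7% over all windows. Of the 55 members, 40 had a window and these 40 had 44. Col4a3, Col26a1 and Lamc1 were among the members without a window. Of the members higher in control rods, only Col4a4 and Col5a3 were thus searched. The letters TAATCC (a core bound by Crx and Otx2), sought on both strands, were in 1 of the 44 windows (2.27%) and in 7.06% of all 32851 windows. TGCTGA, a core of the Nrl site, was in 7 of 44 (15.9%) and in 19.5% of all windows. Neither was found in the Col4a4 or Col4a1 window.

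Rods held fewer reads of these genes than the retina. Summed over the members, control rods had 2977, 2538 and 2911 TMM-scaled reads (2809 ± 237, SD, n = 3) and control retina 7705, 7011 and 8866 (7861 ± 937). Pkm2_Rodko rods had 2586 ± 131 and Pkm2_Rodko retina 7895 ± 1087. The rod sum was 35.7% of the retina sum in control and 32.8% in Pkm2_Rodko mice, and every rod library was below every retina library. As a share of all reads, the members took between 0.0112% and 0.0135% in the rod libraries and between 0.0457% and 0.0614% in the retina libraries. At least 10 reads in all 6 libraries of a fraction were reached by 20 members in rods and 44 in retina. In bulk RNA, fewer cells of a type and less RNA per cell cannot be told apart. The rod libraries hold immunoprecipitated polyribosome-bound RNA and the retina libraries total RNA. Cell type and RNA fraction thus cannot be told apart in this comparison either.

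In a limma fit of all 12 libraries on log2(TMM-scaled reads + 1), 43 of the 55 members were lower in control rods than in control retina, where 35.5% of all 25584 genes tested were lower. Only 4 members were higher (Col26a1, Col4a3, Col5a3 and Col4a4), where 23.5% of all genes were higher. The member median was -2.68 and the median of all genes was -0.37. In Pkm2_Rodko mice 42 members were lower and 4 were higher, with a median of -2.66, against 35.1% and 23.9% of all genes. The median of all genes depends on the scaling: by total reads it was -0.77, and then 2 members were higher and 44 lower in control mice, while the genes called split into 2192 higher and 12708 lower in place of 6001 and 9083. The medians of the members stayed the same when the genes without a read in rods were set at their lower bound.

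**Figure D1:**
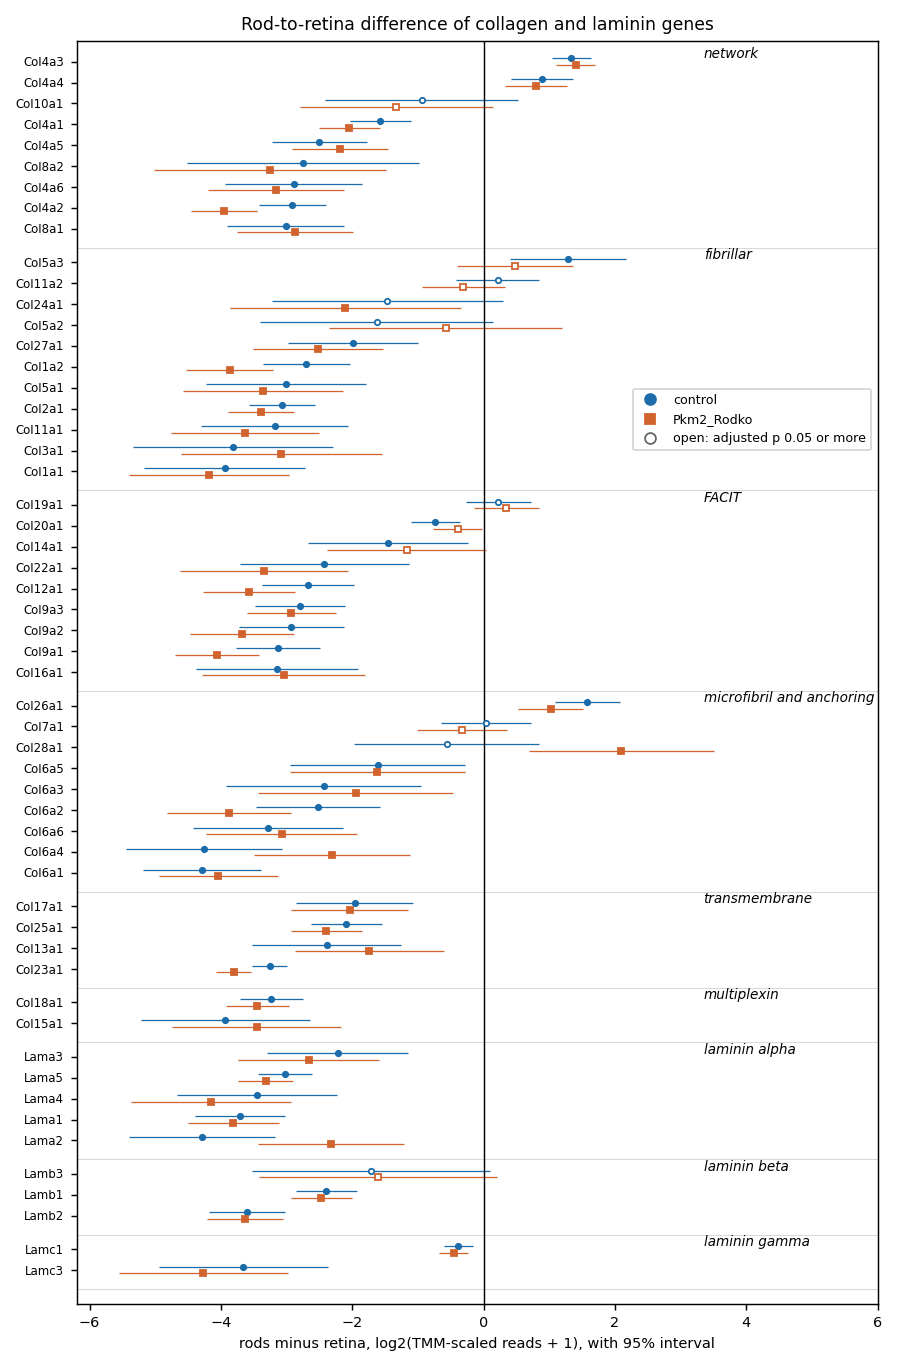
Difference between rods and retina on the log2(TMM-scaled reads + 1) scale for the members whose values are given one by one, by class, in control (blue circles) and Pkm2_Rodko mice (orange squares), with 95% intervals from limma. Filled symbols passed an adjusted p of 0.05. Most members lie between -2 and -4, and Col4a3, Col4a4, Col5a3 and Col26a1 lie to the right of 0 in both genotypes, as does Col19a1, which did not pass.

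Type IV collagen chains split by gene pair. Col4a3 and Col4a4 code for chains of the α3α4α5 network found in the glomerulus and in several basement membranes of the eye. Col4a3 gave 964, 685 and 855 TMM-scaled reads in control rods and 384, 287 and 318 in control retina. All rod libraries were above all retina libraries. The log2 difference was 1.33 ± 0.14 (SE), or 2.52-fold (adjusted p = 7.1e-07). In Pkm2_Rodko mice the libraries gave 997, 796 and 903 in rods and 382, 325 and 311 in retina, a 2.64-fold difference (adjusted p = 3.6e-07). Col4a4 was at 419, 241 and 356 in control rods and 237, 126 and 186 in control retina. Here too the rod values were above the retina values, with the lowest rod library only just over the highest retina library. The log2 difference was 0.89 ± 0.22 (adjusted p = 0.0026) in control and 0.80 (adjusted p = 0.0055) in Pkm2_Rodko mice. Scaled by total reads, the Col4a4 differences were 0.35 and 0.22 and did not pass (adjusted p = 0.18 and 0.41), while Col4a3 passed under every scaling run.

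Col4a5, the partner of both chains in that network, did not follow them. It gave 36.0, 13 and 28.6 TMM-scaled reads in control rods and 128, 100.8 and 212 in control retina, a log2 difference of -2.50 ± 0.34 (adjusted p = 1.1e-05). Per kilobase of exon, Col4a3 stood at 83.8, Col4a4 at 31.9 and Col4a5 at 3.85 TMM-scaled reads in control rods. In control retina the same chains stood at 33.1, 17.3 and 21.9. The ratio of Col4a3 to Col4a5 per kilobase was 18.1 to 35.4 over the control rod libraries and 1.01 to 2.02 over the control retina libraries, with no overlap. Col4a6, which pairs with Col4a5 in the α5α5α6 network, fell by 2.90 on the log2 scale.

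Col4a1 and Col4a2 encode the α1α1α2 network of nearly every basement membrane, including those of vessels. In control retina the genes were close to each other, at 38.5 and 38.1 TMM-scaled reads per kilobase. In control rods they were not, at 12.9 and 5.05. Col4a1 gave 88.4, 78.2 and 122 TMM-scaled reads in control rods and 263, 243 and 356 in control retina, a log2 difference of -1.57 ± 0.22. Col4a2 gave 27.8, 27.9 and 44.5 in control rods and 249, 243 and 265 in control retina, a log2 difference of -2.91 ± 0.24. Both passed (adjusted p = 1.4e-05 and 3.9e-08). The Col4a1 to Col4a2 ratio per kilobase was 2.44 to 2.82 in control rods, 3.46 to 5.83 in Pkm2_Rodko rods and 0.887 to 1.23 over all 6 retina libraries. The rod ratios rest on 17, 30 and 28 reads of Col4a2 in control and on 10, 7 and 17 in Pkm2_Rodko mice. Whether counting used strand is not given in the sources used here, so reads within the shared 5′ ends cannot be told apart from those of the named genes. The same holds for reads from lncRNAs that overlap Col4a3 (C430014B12Rik), Col4a1 (Gm15418 and Gm32709) and Col4a2 (Gm46030).

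**Figure D2:**
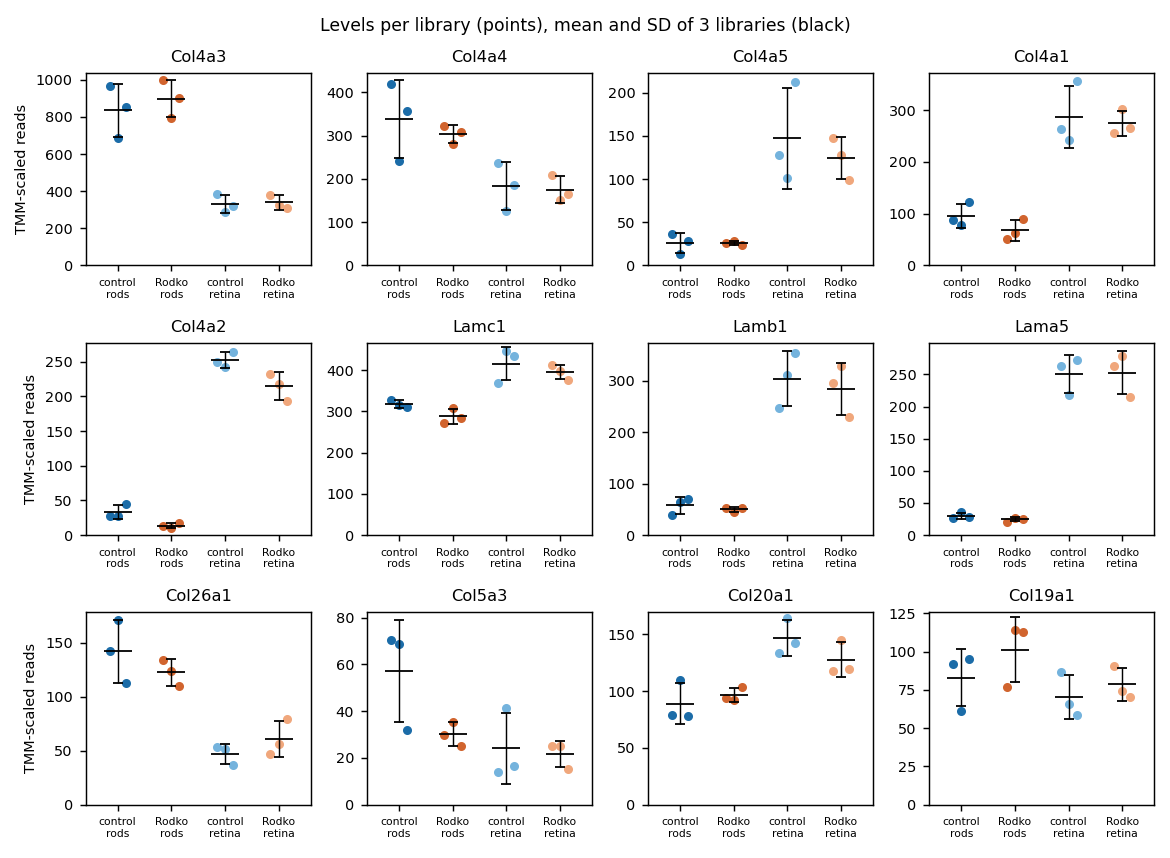
TMM-scaled reads of 12 members in each library, with the mean and SD of 3 libraries per group in black and axes that start at 0. Col4a3, Col4a4, Col26a1 and, in control mice, Col5a3 were higher in rods, whereas Col4a5, Col4a1, Col4a2, Lamb1 and Lama5 were lower, and Lamc1 differed least among the laminins.

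Among laminins, all 11 log2 differences between control rods and retina were negative, 10 of them past the threshold, with a median of -3.45. Lamc1, the gamma chain of most laminins, was the exception in size. It gave 327, 314 and 310 TMM-scaled reads in control rods and 369, 445 and 434 in control retina. The rod values were lower in every library, but by only 0.39 ± 0.10 on the log2 scale (adjusted p = 0.0045), next to a shift of -0.37 in the median of all genes. A pseudogene, Gm8818, overlaps Lamc1. Lamb1, a beta chain that joins Lamc1 in many laminins, gave 39.3, 65.1 and 70.0 in control rods and 247, 311 and 354 in control retina (log2 difference -2.39 ± 0.22). Lamc1 per kilobase was thus 5.31 to 9.99 times Lamb1 in control rods and 1.47 to 1.79 times in control retina.

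The remaining laminin chains were at most at 2.94 TMM-scaled reads per kilobase in control rods. Lamb2, the beta chain known from synapses and from the retina's inner basement membrane, stood at 2.94 in control rods and 37.8 in control retina (log2 difference -3.61 ± 0.27). Of the alpha chains, which carry the receptor-binding end, Lama5 was highest in control retina at 22.1, followed by Lama1 at 14.1 and Lama3 at 5.28. Their log2 differences were -3.03, -3.71 and -2.22. Lama4 and Lama2, chains of vessel and muscle laminins, gave 3 reads and 1 read over the 3 control rod libraries against 93 and 110 in control retina. On the common scale these are ratios of 19.4 (95% counting interval 6.45 to 95.9) and 68.9 (12.1 to 2747) in favour of retina, and such intervals cover counting error only. Lamc3 fell by 3.66 on the log2 scale, and Lamb3, with -1.71 ± 0.85, did not pass (adjusted p = 0.096).

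Type VIII collagen, a network former known from Descemet's membrane and vessel walls, was low in rods and uneven in retina. Col8a2 gave 218, 54.0 and 318 TMM-scaled reads in control retina and 286, 332 and 148 in Pkm2_Rodko retina. Control library 2 and Pkm2_Rodko library 3 were the lowest, as they were for the summed pigment epithelium, melanocyte and fibroblast markers of retina. In rods the values were 37.7, 3.72 and 68.4 in control and 28.6, 48.9 and 10.1 in Pkm2_Rodko mice, with the same libraries lowest. Col8a1 followed with 259, 142 and 240 in control retina and 229, 376 and 156 in Pkm2_Rodko retina. Both genes were lower in control rods than in retina (log2 differences of -2.75 ± 0.83 and -3.02 ± 0.42), and Col8a2 lost its call without control rod library 2 or control retina library 3 (adjusted p = 0.052 and 0.058). The part of pigment epithelium, melanocytes and fibroblasts in these values was not tested.

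**Figure D3:**
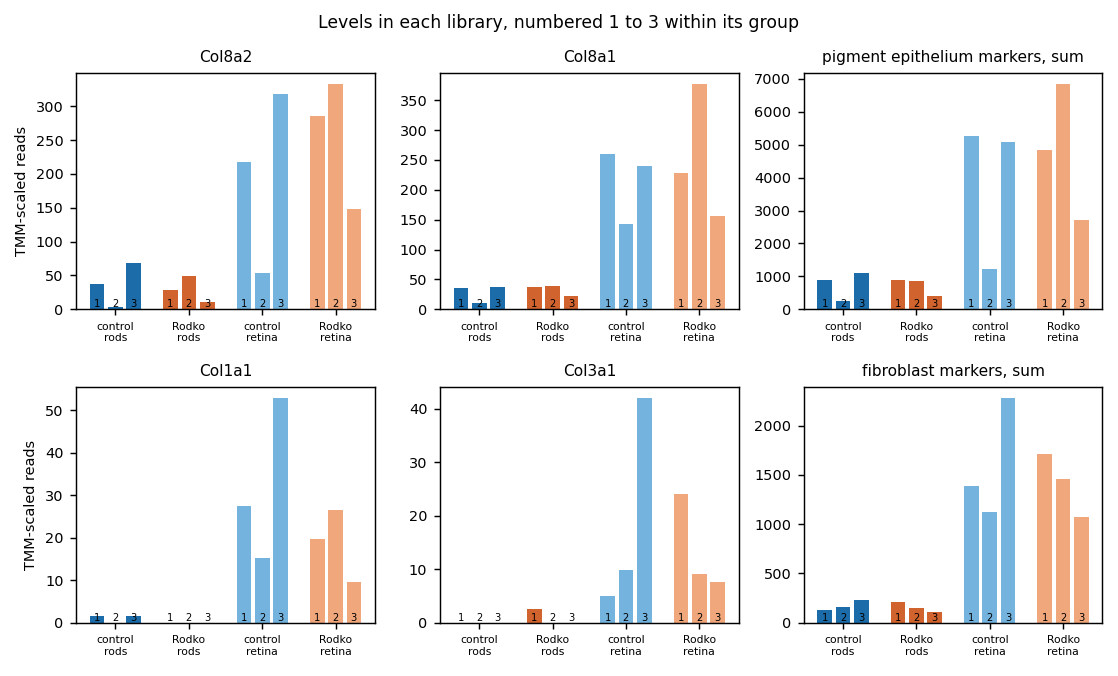
TMM-scaled reads in each library, numbered within its group, for Col8a2, Col8a1, Col1a1 and Col3a1 and for the summed markers of pigment epithelium and fibroblasts. Control library 2 and Pkm2_Rodko library 3 were lowest for type VIII collagen and the pigment epithelium sum in both fractions. Control retina 3 was highest of the control retinas for Col1a1, Col3a1 and the fibroblast sum.

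Fibrillar collagens include the main chains of vitreous and connective tissue. Col2a1, which builds the fibrils of vitreous and cartilage, was the highest of them in control retina at 39.0 TMM-scaled reads per kilobase, and it fell by 3.07 ± 0.24 on the log2 scale in control rods. Col1a2 and Col1a1, the chains of type I collagen, stood at 9.63 and 4.86 per kilobase in control retina. Col1a1 had 2 reads over all control rod libraries against 123 in retina, a ratio of 38.5 (95% counting interval 10.4 to 322), and it had 0 reads in Pkm2_Rodko rods, where it was at least 15.5-fold lower than in retina, taking 3 reads over the group as the limit. Col3a1 had 0 reads in control rods and was at least 14.6-fold lower there. Within control retina, Col3a1 gave 4.99, 9.90 and 42.1 TMM-scaled reads and Col1a1 27.4, 15.3 and 52.9. Library 3 was highest for both and for the sum of the 7 fibroblast markers, at 1386, 1119 and 2285. Dcn gave 190, 37.8 and 795 of these reads, and Pi16 was lowest in library 3. The melanocyte marker sum was also highest there, at 4175, 874.5 and 14740.

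A single fibrillar gene was higher in control rods. Col5a3, a minor chain that shapes heterotypic fibrils, gave 70.4, 68.8 and 31.8 TMM-scaled reads in control rods and 14.1, 41.4 and 16.7 in control retina. The groups overlapped, since the lowest rod library lay under the highest retina library. The log2 difference was 1.28 ± 0.42 (adjusted p = 0.015), and it did not pass in Pkm2_Rodko mice (0.47 ± 0.42, adjusted p = 0.34), by total reads (0.75, adjusted p = 0.13), or without any 1 of control rod library 1, control rod library 2, control retina library 1 and control retina library 3 (adjusted p between 0.054 and 0.078). Col11a2, a chain of cartilage-type fibrils, was at 24.6, 36.3 and 33.4 in control rods and 23.3, 27.9 and 29.0 in control retina. Its log2 difference of 0.21 ± 0.30 did not pass (adjusted p = 0.55) and was -0.32 by total reads. In Pkm2_Rodko mice Col11a2 was called lower in rods by total reads (-0.87, adjusted p = 0.018, limma) and by deposited values (-0.89, adjusted p = 0.015). Col5a2 and Col24a1 were near the detection limit in rods and did not pass in control mice.

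FACIT collagens sit on fibrils and link them to other matrix. Col9a1, Col9a2 and Col9a3, the chains of type IX that coats vitreous fibrils, were all abundant in retina, at 91.9, 42.9 and 43.1 TMM-scaled reads per kilobase in control. All fell in control rods, with log2 differences of -3.13, -2.93 and -2.80. Col20a1 and Col19a1 were closer between the fractions. Col20a1 gave 78.6, 110 and 77.9 TMM-scaled reads in control rods and 134, 165 and 142 in control retina, a log2 difference of -0.73 ± 0.17 (adjusted p = 0.0019). In Pkm2_Rodko mice the difference was -0.39 (adjusted p = 0.066), and it passed by total reads (-0.97, adjusted p = 0.00025), by deposited values (-0.99, adjusted p = 0.00015), by RLE (-0.47, adjusted p = 0.032) and without both low-pigment library numbers (-0.49, adjusted p = 0.045). Col19a1 gave 91.7, 61.4 and 95.4 in control rods and 86.5, 65.7 and 58.7 in control retina, so the groups overlapped. Its log2 difference of 0.23 ± 0.23 did not pass (adjusted p = 0.42) and was -0.32 by total reads.

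Among the microfibril and anchoring collagens Col26a1, a short collagen with an EMI domain, had the highest rod-to-retina difference of any member in control mice. It gave 142, 171 and 113 TMM-scaled reads in control rods and 53.2, 51.3 and 36.3 in control retina, with every rod library above every retina library. The log2 difference was 1.58 ± 0.23, or 2.99-fold (adjusted p = 2.6e-05), and 1.02 (adjusted p = 0.0013) in Pkm2_Rodko mice. By total reads it was 0.44 in Pkm2_Rodko mice and did not pass (adjusted p = 0.12). The lncRNAs Gm30654 and Gm20485 overlap the gene. Col7a1, the anchoring fibril collagen of epithelia, gave 44.2, 54.9 and 36.6 in control rods and 39.1, 38.7 and 54.4 in control retina (log2 difference 0.04 ± 0.32, and -0.50 by total reads). In Pkm2_Rodko mice Col7a1 was called lower in rods by total reads (-0.90, adjusted p = 0.027, limma) and by deposited values (-0.92, adjusted p = 0.021). The chains of type VI, which form beaded filaments around cells, were all lower in control rods. Col6a5, with 2 reads in control rods and 16 in control retina, lost that call without any 1 library other than control rod library 1 (adjusted p between 0.052 and 0.14) and with edgeR (adjusted p = 0.12). Col6a1 was the highest of them in control retina at 47.3 per kilobase and fell by 4.29 ± 0.42 on the log2 scale. Col6a2 and Col6a3, its partners in the classic trimer, fell by 2.53 and 2.44. Col6a4 had 1 read in control rods against 92 in control retina, a ratio of 57.7 (95% counting interval 10.1 to 2302).

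The transmembrane and multiplexin classes hold the most abundant members of the retina. Col23a1, a membrane-bound collagen that can be shed, was the highest member in control retina at 220 TMM-scaled reads per kilobase. It gave 1241, 1209 and 1340 TMM-scaled reads in control retina and 134, 127 and 132 in control rods, a log2 difference of -3.26 ± 0.12 (adjusted p = 3.0e-11). Col18a1, the basement membrane collagen from which endostatin is cut, came next at 119 per kilobase and fell by 3.23 ± 0.23. Col15a1, the other multiplexin, fell by 3.93 ± 0.61. Col25a1 and Col17a1 fell by 2.09 and 1.96, and Col13a1, with 0 reads in control rods, was at least 3.44-fold lower. In control rods the order differed: Col4a3 led at 83.8 TMM-scaled reads per kilobase, before Lamc1 at 38.4, Col4a4 at 31.9, Col23a1 at 22.8, Col26a1 at 17.4 and Col20a1 at 17.3. Col4a3, Col4a4 and Lamc1 together took 53.1% of the member reads of control rods.

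Markers of other retinal cells gave a frame for these differences. In control mice 15 lists of markers were measured in the same fit. The medians of 11 lists, of inner retinal neurons, glia, vascular and connective tissue cells, microglia and melanocytes, lay below the member median of -2.68. The median log2 difference was -2.88 for Müller glia (8 of 8 lower), -3.08 for astrocytes (3 of 4), -2.92 for amacrine (7 of 7), -2.96 for ganglion (7 of 7), -3.13 for bipolar (7 of 8) and -3.53 for horizontal cells (3 of 3). It was -2.94 for endothelial cells (7 of 7), -2.80 for pericytes (5 of 5), -3.08 for microglia (7 of 7), -3.09 for fibroblasts (5 of 7) and -3.13 for melanocytes (4 of 4). Pigment epithelium (5 of 5, -2.36) and lens markers (1 of 4, -1.92) had medians above that of the members. Cone markers fell least (7 of 7, -0.70). Markers of these cells were thus present in the rod libraries, for example with summed levels of 11120 to 14060 TMM-scaled reads for Müller glia in control rods against 78110 to 90340 in control retina. Their part in the member reads of the rod libraries was not tested.

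**Figure D4:**
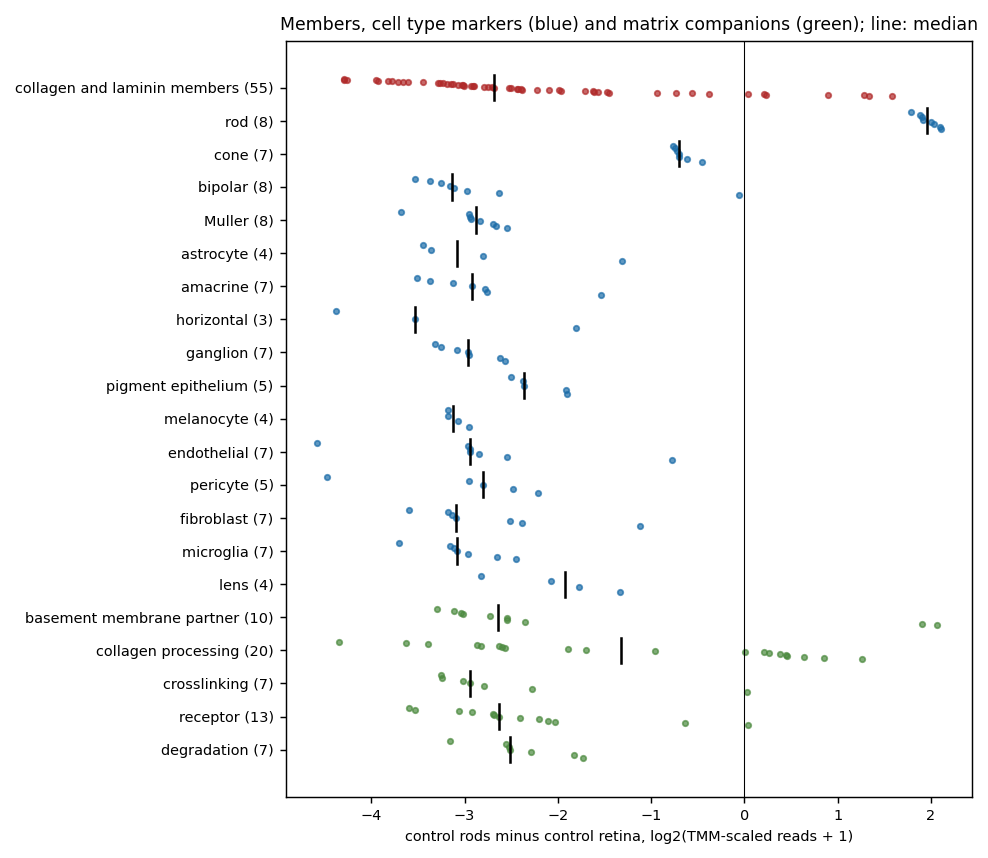
Difference between control rods and control retina for the members (red), for marker genes of 15 cell types (blue) and for 5 lists of matrix companions (green). Each point is a gene, the black line is the median, and the number of genes is in brackets. The member median of -2.68 lies among those of the non-rod lists, and rod markers lie near 2.

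Among companion genes of matrix assembly, most in each of 5 lists were lower in control rods. Of 10 basement membrane partners, Vtn (vitronectin, a cell-adhesion protein) and Egflam (pikachurin, a dystroglycan ligand of the photoreceptor synapse) were higher in control rods, with log2 differences of 2.07 and 1.90, and 8 were lower, among them Sparc (-3.04), Agrn (-2.55), Ntn4 (-3.12) and Tnc (-2.73). Of 20 genes for processing of procollagen, 7 were higher and 11 lower. P4hb, a subunit of prolyl 4-hydroxylase with other roles in the endoplasmic reticulum, was 1.26 higher, P4ha1, its catalytic partner, was 0.44 higher, and Colgalt1, which adds galactose to hydroxylysine, was 0.64 higher. Mia3, Adamts3 and Ppib, which act in export, propeptide removal and folding, were 0.38, 0.46 and 0.27 higher. By total reads 2 of these 20 were higher and 13 lower, and by deposited values 1 and 13. Of 7 crosslinking genes 6 were lower (Pxdn, the peroxidase of the type IV network, by a log2 difference of -3.25), and none was higher. Of 13 receptors 12 were lower, among them Ddr1 (-3.05) and Itgb1 (-0.64), and Dag1, the dystroglycan gene, differed by 0.04 ± 0.11 (adjusted p = 0.79). All 7 genes of matrix degradation and its inhibitors were lower, led in level by Timp2 (-2.52) and Timp3 (-2.28).

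Between genotypes, no member differed past the threshold. In rods 47 of the 55 members passed the filter of a mean deposited value of 1 in 1 genotype, and limma on log2(deposited value + 1) called 0 of them, where 0.0194% of all 20658 genes were called. edgeR's quasi-likelihood test and DESeq2 on the reads also called 0. At an unadjusted p under 0.05, 5 members were lower and 3 higher in Pkm2_Rodko rods, against 3.41% and 1.37% of all genes. With edgeR these were 6 and 2 (724 and 299 among all genes) and with DESeq2 3 and 0 (399 and 124 among all genes). The 3 higher ones (Lama2, Col6a4 and Col28a1) passed the filter only through the Pkm2_Rodko libraries in which they are higher, so their count is no support for a rise. Among the 20 members with 10 reads in every rod library, 2 were lower and 0 higher in limma at an unadjusted p under 0.05. Of all 13015 genes with 10 reads in every rod library, 455 were lower and 180 higher. The libraries of the genotypes did not overlap for 4 lower and 3 higher members, where 5.4% of all genes lay fully lower and 4.49% fully higher. The median log2 difference of the 47 members was -0.16, with 28 below 0.

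The member with the smallest p in rods was Col4a2. It had deposited values of 21.8, 21.9 and 34.5 in control and 10.1, 7.5 and 13.5 in Pkm2_Rodko rods, a log2 difference of -1.25 with a 95% interval from -2.06 to -0.45 (unadjusted p = 0.0052, adjusted p = 0.93, limma). Every Pkm2_Rodko value was below every control value, though all were small. Col4a1, whose chain it joins, gave a difference of -0.51 (-1.07 to 0.06). Col23a1 had 105, 99.2 and 102 in control and 80.1, 60.0 and 59.4 in Pkm2_Rodko rods (log2 difference -0.63, -1.05 to -0.20). Col12a1, a FACIT of dense connective tissue, and Col1a2 gave -1.14 (-2.09 to -0.19) and -1.09 (-2.02 to -0.16), also without overlap. Lama2 was the one among the 5 smallest p that was higher, by 1.94 (0.59 to 3.28), and it rested on 1 read in control and 13 in Pkm2_Rodko rods, a ratio of 12 (95% counting interval 1.81 to 512). Col6a4 and Col28a1, the other higher ones without overlap, rested on 1 against 10 and 3 against 14 reads. The smallest adjusted p among members was 0.93.

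Of the 5 members highest per kilobase in control rods, Col23a1 had an interval below 0 and the other 4 had intervals that spanned 0. Col4a3 differed between genotypes by 0.12 (95% interval -0.16 to 0.41), Col4a4 by -0.11 (-0.50 to 0.28), Lamc1 by -0.13 (-0.41 to 0.14) and Col26a1 by -0.19 (-0.62 to 0.23) on the log2 scale of deposited values in rods. For low members the intervals were wide: the median SE over the 47 members was 0.44. Col5a3 differed by -0.81 (-1.55 to -0.07, unadjusted p = 0.034).

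Markers of other cells also differed between the rod libraries of the genotypes. The summed astrocyte markers ran from 90.6 to 108 TMM-scaled reads in control rods and from 51.6 to 62.5 in Pkm2_Rodko rods, and Müller glia markers from 11120 to 14060 and from 9020 to 10800. Endothelial markers ran from 455 to 619 and from 307 to 426, and amacrine markers from 1469 to 2038 and from 1267 to 1340. The sums of the other lists overlapped, for example 1110 to 1553 and 820 to 1355 for ganglion cell markers. In the genotype test all 8 Müller markers, all 4 astrocyte and all 7 ganglion cell markers had log2 differences below 0 in rods, with medians of -0.40, -0.67 and -0.40. Of the endothelial markers 5 of 7 were below 0, and of the amacrine markers 6 of 7. None of these markers passed the adjusted threshold. The same test in retina put 8 of 8 Müller, 3 of 4 astrocyte and 5 of 7 ganglion cell markers below 0. Their medians there were -0.16, -0.28 and -0.03. Endothelial (7 of 7) and amacrine markers (5 of 7) had retina medians of -0.13 and -0.05, and none passed. No marker of these 5 lists was at 0 in either group of rods. Their part in the member values of rods was not tested.

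**Figure D5:**
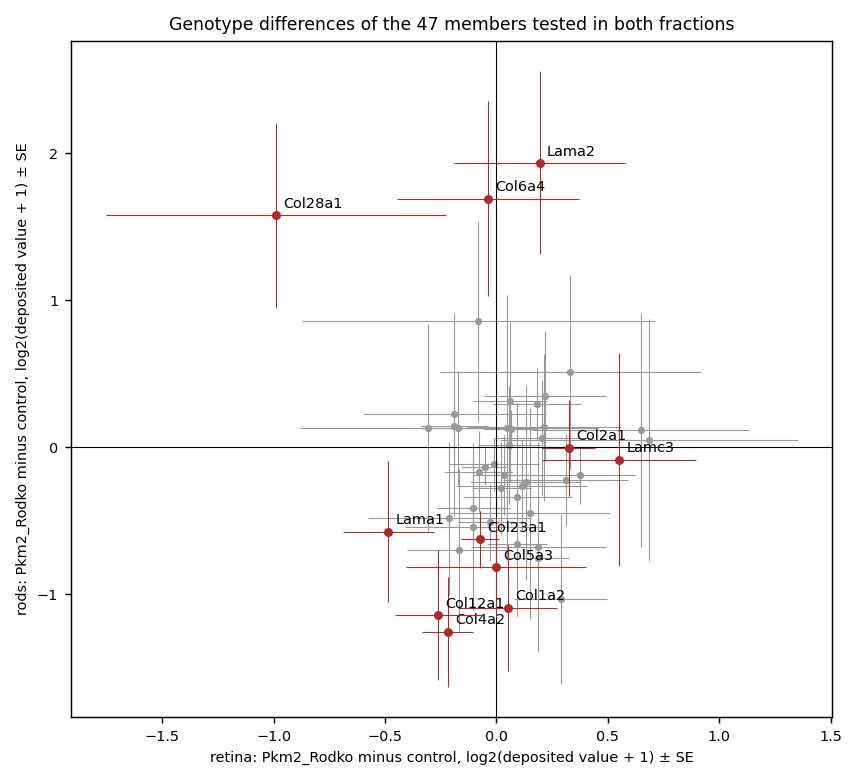
Genotype difference (Pkm2_Rodko minus control) in rods against that in retina for the 47 members tested in both fractions, on the log2(deposited value + 1) scale with SE from limma. Members with an unadjusted p under 0.05 in rods or among the 5 smallest in retina are named. No member passed an adjusted p of 0.05, and the spread is wider in rods than in retina.

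In retina all 55 members were tested and 0 were called by limma, edgeR or DESeq2, where 0.00391% of all 25590 genes were called by limma. At an unadjusted p under 0.05 there was 1 lower member (2.06% of all genes) and 1 higher (2.12%). The same member counts came from edgeR (607 lower and 419 higher among all genes) and DESeq2 (257 and 292). Col2a1 was the higher one. It had deposited values of 417, 389 and 468 in control and 500, 624 and 479 in Pkm2_Rodko retina, without overlap (log2 difference 0.32, 95% interval 0.07 to 0.58, adjusted p = 0.95, limma). Lama1, the alpha chain of early basement membranes and of the retina's vitreous face, was the lower one, at 118, 193 and 172 in control and 92.8, 138 and 111 in Pkm2_Rodko retina (-0.49, -0.93 to -0.04). Its groups overlapped. Next by p were Col4a2 (-0.22, -0.47 to 0.03), Col16a1 (-0.87, -2.04 to 0.30) and Lamc3 (0.55, -0.19 to 1.30). Col4a2 was the 1 member whose Pkm2_Rodko retina values all lay below the control values, and Col2a1 the 1 that lay above. Among all 25590 genes, 1217 lay fully lower and 1160 fully higher. The median over the members was 0.02, with 27 of 55 below 0.

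The difference between the genotype effects of rods and retina was tested in the fit of all 12 libraries. It was past an adjusted p of 0.05 for 0 members and for 0% of all 25584 genes in limma, and for 0 genes in edgeR. Unadjusted, 5 members had a more negative and 3 a more positive effect in rods, with 6 and 3 in edgeR. Over all genes the limma shares were 2.6% and 1.81%, and edgeR gave 919 and 274 of the 25584 genes. The smallest p among the negative ones belonged to Col23a1 (-0.55) and Col4a2 (-1.04), both with an adjusted p of 0.98 in limma. Col28a1 had the largest positive difference (2.66, adjusted p = 0.98), which rested on 17 reads in all rod libraries and 12 in all retina libraries. Col28a1 was also the member that was higher in rods than in retina only among Pkm2_Rodko mice by the adjusted p (log2 difference 2.10, adjusted p = 0.012), and it lost that call without Pkm2_Rodko rod library 1 or Pkm2_Rodko retina library 3 (adjusted p = 0.055 and 0.054).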

How the data were processed

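RNA-seq of polyribosome-bound RNA from rods and of total retinal RNA was analysed in 12 libraries, 3 in each of 4 groups assigned from the sample labels. The deposited signal was each gene's read number over the library's size factor (median of ratios), which the authors set separately for rods and for retina, with 1 decimal. The submitters' processing notes name CASAVA 1.8.2, HISAT2, DESeq2, edgeR and GRCm39; the counting tool, annotation and strand setting are not given in the sources used here. Dividing by the smallest step gave whole reads for 99.9985% of positive values (tolerance 0.1 of a step). Replicates differed by more than sampling noise.

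Genotypes were compared within a fraction by limma (3.58.1, R 4.3.3, trend) on log2(deposited value + 1), over genes with a mean of at least 1 in 1 genotype. Rods, retina and the difference of genotype effects were compared in 1 limma fit on reads scaled by TMM (edgeR 4.0.16), with pseudocount 1. P-values were adjusted by Benjamini-Hochberg over all genes tested, at 0.05. Same-numbered rod and retina libraries of a genotype deviated together (r between 0.145 and 0.344, 6 of 6 pairs over 0.1 across 16352 genes), whereas same numbers across genotypes did not. Exon lengths came from GENCODE vM21 for 55 of 55 members, and promoter windows and gene overlaps from RefSeq on GRCm38.p6; no coordinates were converted. DESeq2 (1.42.0), other scalings, filters and pseudocounts, a replicate block and leaving out libraries were the alternatives. The fits were tested on simulated data with 1 fixed dispersion, in which only genes with a mean of at least 10 reads were changed. That test does not cover members below this level. Genes named were Pkm, the 12 highest members of each fraction in control mice, the 6 highest and 6 lowest by ratio, members not lower in rods, the 5 of smallest p per genotype test, the highest of each class, the chains of each trimer, and up to 6 of the most expressed companions per list. The members and lists were chosen with earlier results of these data known. The depth of 13458890 to 22790073 reads leaves most members under 10 reads in at least 1 rod library. The values of 1 member are not reported here; it stays in all counts and medians.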

Additional observations from a re-analysis of the deposited data

How the results depend on the processing

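Counts of members called by genotype were 0 in rods and 0 in retina under every alternative run, including each library left out, and 0 for the difference of genotype effects. Between control rods and retina 47 members were called (44 to 47 with 1 library left out, 40 to 48 under the others). In Pkm2_Rodko mice 46 were called (43 to 45, and 38 to 49). The low ends of 40 and 38 came from the filter of 10 reads in every library of 1 fraction, which tested only 44 members. Members higher in rods were 3 to 4 with 1 library left out in either genotype, and 2 in place of 4 by total reads and by deposited values, in control and Pkm2_Rodko mice alike. The summed member level of rods was 24.3% of retina by total reads in control and 21.8% in Pkm2_Rodko mice. The direction turned for Col11a2 in control (-0.32 by total reads, -0.36 by deposited values), Col19a1 (-0.32 and -0.36 in control, -0.23 and -0.25 in Pkm2_Rodko), Col7a1 in control (-0.50 and -0.55, -0.026 by RLE, -0.19 without both low-pigment library numbers, between -0.11 and 0.19 with 1 library left out) and Col5a3 in Pkm2_Rodko (-0.087 and -0.10). None of these passed as reported, and the causes were not tested. In Pkm2_Rodko mice Col11a2, Col7a1 and Col20a1 gained a call as lower in rods by total reads and by deposited values.

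With the replicate number as a block, 0 members were called by genotype in either fraction (4 higher and 4 lower among all genes in rods, 0 in retina). Pkm in retina lost its call (adjusted p = 0.16, limma), and no other call by genotype among the genes followed changed. Between rods and retina the block gave 4 higher and 44 lower members in control and 4 and 43 in Pkm2_Rodko mice. Without the block there were 43 lower members in control and 42 in Pkm2_Rodko mice. Between genotypes the same-number correlations were -0.04, 0.07 and -0.12 in rods and 0.01, -0.05 and -0.23 in retina, so the numbers do not pair those libraries. Leaving out control libraries 2 and Pkm2_Rodko libraries 3 of both fractions, an alternative chosen after seeing the data, gave 4 higher and 42 lower members in both genotypes and 0 members by genotype, and Pkm in rods then differed by -1.20, as before, with an adjusted p of 0.053. Depth limits the low members: only 20 of 55 reached 10 reads in every rod library.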
